A study of Mus musculus with 6 samples.

Results

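The RB pathway, D cyclin and CDK inhibitor genes were taken by symbol from the raw count table of immortalized mouse pancreatic fibroblasts: the inhibitor genes Cdkn2a, Cdkn2b, Cdkn2c and Cdkn1b, the retinoblastoma gene Rb1, the D cyclin genes Ccnd1, Ccnd2 and Ccnd3, and the kinase genes Cdk4 and Cdk6. All 10 are among the 14831 genes of the table, and all 10 had enough counts to be tested. The study compared WT fibroblasts with Gli2-/-;Gli3-/- fibroblasts, each grown to confluence in 3 separate wells of a 6-well plate, in DMEM with 10% calf serum, and RNA was sequenced from polyadenylated libraries. The methods describe lines grown out from the pancreas of adult mice with floxed Gli alleles, of mixed strain by the labels, immortalized, and then infected with an eGFP adenovirus together with either a dsRed lentivirus (control) or a CMV-driven Cre adenovirus (deletion), with infected cells isolated by flow cytometry. How many lines stand behind the wells is not stated, so that p values measure the spread between wells and may not reflect independently made lines.

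In the cell cycle, the RB protein holds the E2F transcription factors in check until it is phosphorylated. D cyclins, which are made in response to growth signals, activate CDK4 and CDK6 to start that phosphorylation, INK4 proteins bind CDK4 and CDK6 and block them, and KIP1 (the product of Cdkn1b) binds cyclin-CDK complexes. Freed E2F factors turn on S-phase genes, and genes of mitosis follow. Ccnd1 and Ccnd2 are commonly listed among the genes that HH signaling can induce, and fibroblasts in long culture are known for rising Cdkn2a expression.

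Library totals were between 31728420 and 41035931 counts on genes, and no member had fewer than 122 counts in any library, so that counting error was largest for Cdkn2b, the least counted of them. The targeted genes go against the labels: Gli2 had 809, 944 and 868 counts in WT-labelled wells and 1932, 2316 and 1926 in KO-labelled wells, and Gli3 had 392, 416 and 398 against 1434, 1637 and 1404. The methods describe screening the infected lines for recombination by qPCR and western blot, and the counts cover each whole gene, so that exons outside the deleted part, which the sources used here do not give, are read with it. The counts were 2.07-fold higher for Gli2 and 3.27-fold higher for Gli3 in KO-labelled wells. Why they were higher was not tested, and neither was a fault in the labels. For this reason the wells are named WT-labelled and KO-labelled, and each direction given is that of the labels alone. Of 7 fibroblast markers 6 are in the table (Vim, Col1a1, Col1a2, Pdgfra, Pdgfrb and Dcn, with Pdpn not listed), with a summed level between 36040 and 38080 CPM (counts scaled to library size) in WT-labelled wells and between 32300 and 33660 CPM in KO-labelled wells. Most of that sum is Col1a1 and Col1a2, and other markers differed more: Dcn fell from 2643 ± 117 to 905 ± 6.95 CPM (log2 fold change -1.55), Pdgfra by 0.90 and Pdgfrb by 0.66 on the log2 scale. Of 7 epithelial markers 4 are listed, and their sum ranged from 12.8 to 13.8 CPM in WT-labelled wells and from 29.5 to 30.4 CPM in KO-labelled wells. Krt7 carries that difference, at 4.38 ± 0.472 and 23.1 ± 0.257 CPM, while Sox9 fell from 8.51 ± 0.104 to 6.03 ± 0.446 CPM (mean ± SD, n = 3 each). Cdh1 and Krt8 were higher in KO-labelled wells at low levels. Cdh1 was at 0.340 ± 0.0703 and 0.719 ± 0.125 CPM, and Krt8 had 1, 0 and 2 counts against 7, 9 and 12. For these markers the defining genes Epcam, Krt18 and Krt19 are not in the table, and of 5 acinar markers only Cela1 is listed (7.36 to 8.84 CPM against 13.6 to 15.4 CPM). Of 4 immune markers 1 is listed, at 1.14 to 1.19 CPM and 1.33 to 1.73 CPM, and of 3 endothelial markers 0 are. The part of these marker differences in the results was not tested.

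Changes are given as log2 fold changes of KO-labelled wells relative to WT-labelled wells, with CPM scaled by edgeR's TMM factors and SE the standard error; adjusted p values (Benjamini-Hochberg, over all 14289 genes tested) are from the quasi-likelihood test of edgeR. A gene passed the test at an adjusted p under 0.05, and was counted as differentially expressed where its change was also at least 1.5-fold. In total 6 of the 10 members passed the test, 4 lower (Cdkn2a, Cdkn2b, Cdkn2c and Ccnd1) and 2 higher (Ccnd2 and Cdk6) in KO-labelled wells, against 58.7% of all genes tested, 29.9% higher and 28.8% lower. The groups did not overlap in CPM for 6 members, beside 64.2% of all genes. With the 1.5-fold limit 0 of the 10 were differentially expressed by edgeR, DESeq2 or limma, against 17.7% of all genes (11.6% higher and 6.1% lower), and 6 had an unadjusted p under 0.05 in edgeR's test. The members' median absolute log2 fold change was 0.23, beside 0.22 over all genes. The share of members past the test is thus near that of all genes, and the changes of those 6 were small but larger than the spread between wells.

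**Figure D1:**
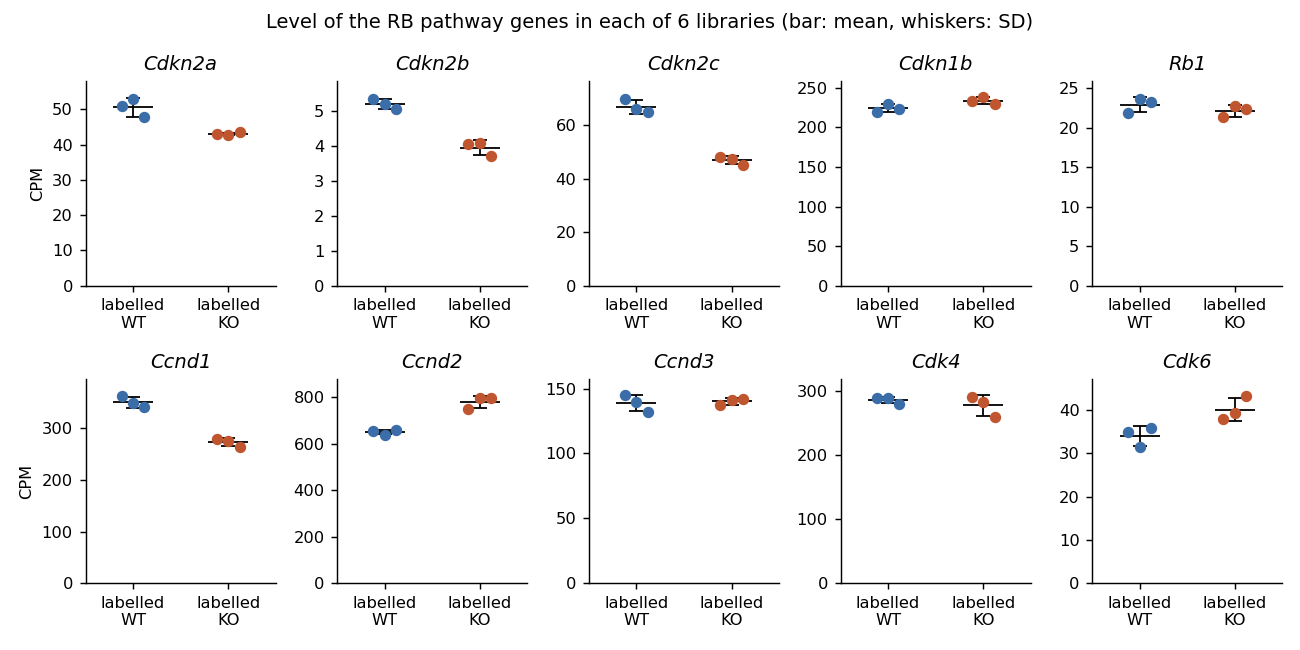
Level of each member in CPM (vertical axis, from 0, with its own scale in each panel) in the 3 WT-labelled wells and the 3 KO-labelled wells; points are libraries, the bar is the mean and the whiskers are the SD. In 6 panels, those of Cdkn2a, Cdkn2b, Cdkn2c, Ccnd1, Ccnd2 and Cdk6, the points of the groups do not overlap.

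All 3 INK4 genes among the members fell, Cdkn2c and Cdkn2b more than Ccnd1 and Cdkn2a less. Cdkn2c, which encodes the CDK4 and CDK6 inhibitor INK4C (chromosome 4, 109660876 to 109667189, on GRCm38 as are all gene positions, which come from GENCODE M21), had 2180, 2209 and 2069 counts in WT-labelled wells and 1706, 1979 and 1488 in KO-labelled wells. Scaled for library size these are 69.6, 66.0 and 64.8 CPM against 48.2, 47.5 and 45.1 CPM, so that every well labelled WT lies above every well labelled KO. Its log2 fold change was -0.51 (SE 0.04, adjusted p = 3.09e-07), a level 1.42-fold lower in KO-labelled wells and the largest change among the members.

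Cdkn2a (chromosome 4, 89274471 to 89294653) encodes INK4A and, from another first exon and reading frame, the p53-stabilizing protein ARF. Counts per gene do not separate these transcripts. It had 1597, 1774 and 1524 counts in WT-labelled wells and 1524, 1782 and 1434 in KO-labelled wells, or 51.0, 53.0 and 47.7 CPM against 43.0, 42.8 and 43.4 CPM. The groups do not overlap in CPM, and KO-labelled wells lie closer together than WT-labelled wells. The log2 fold change of Cdkn2a was -0.23 (SE 0.04, adjusted p = 4.63e-04). Per length of annotated exon it was at 43.1 ± 2.25 and 36.8 ± 0.291 RPKM (CPM per kilobase of exon, mean ± SD of 3 wells in each group), a level at or above that of 92.1% of the genes tested.

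Cdkn2b, which encodes INK4B and lies upstream of Cdkn2a on the same strand with 11645 bases between the genes, was the least counted member. It had 167, 174 and 161 counts in WT-labelled wells and 143, 170 and 122 in KO-labelled wells, or 5.33, 5.20 and 5.04 CPM against 4.04, 4.08 and 3.70 CPM. The groups do not overlap in CPM, and the log2 fold change was -0.39 (SE 0.09, adjusted p = 0.00303). The nearest listed gene on the other side of Cdkn2a, Mtap, which encodes an enzyme of methionine salvage, was higher in KO-labelled wells, by 0.23 on the log2 scale (SE 0.05, adjusted p = 0.00174). Beyond Cdkn2b lies the noncoding gene Gm12610, with 6 to 15 counts in every library, which was too few to be tested.

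The promoters of the INK4 genes among the members are shown because these 3 genes of the same pathway step each fell. RefSeq's table for GRCm38.p6 has starts for 7 of the 10 members (Rb1, Ccnd1 and Ccnd2 were not matched), 10 starts in all. The 250 bases before each were searched on both strands for the GLI motif GACCACCCA and for 4 forms of the E2F motif, TTTGGCGC, TTTCCCGC, TTTCGCGC and TTTGCCGC. Capitals mark a match, and each sequence reads towards the gene on the minus strand of chromosome 4. The 250 bases before the downstream start of Cdkn2c (chr4:109665373-109665622) hold 6 CpG dinucleotides and no match, and are not shown.
Cdkn2a, upstream start, chr4:89294620-89294869: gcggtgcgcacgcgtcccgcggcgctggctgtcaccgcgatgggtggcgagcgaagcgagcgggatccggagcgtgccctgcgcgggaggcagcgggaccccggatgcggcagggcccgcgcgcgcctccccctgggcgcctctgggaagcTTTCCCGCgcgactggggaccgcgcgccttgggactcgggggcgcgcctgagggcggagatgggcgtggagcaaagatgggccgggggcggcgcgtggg
Cdkn2a, downstream start, chr4:89282193-89282442: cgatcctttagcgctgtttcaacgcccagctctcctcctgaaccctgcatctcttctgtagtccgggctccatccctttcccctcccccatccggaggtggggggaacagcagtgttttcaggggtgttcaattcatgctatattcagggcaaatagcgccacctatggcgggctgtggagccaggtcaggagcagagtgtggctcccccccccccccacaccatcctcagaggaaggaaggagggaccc
Cdkn2b, chr4:89311033-89311282: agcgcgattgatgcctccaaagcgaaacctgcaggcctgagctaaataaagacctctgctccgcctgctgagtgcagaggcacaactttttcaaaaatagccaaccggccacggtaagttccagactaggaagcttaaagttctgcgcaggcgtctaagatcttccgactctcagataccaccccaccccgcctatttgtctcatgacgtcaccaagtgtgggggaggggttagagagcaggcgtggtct
Cdkn2c, upstream start, chr4:109666757-109667006: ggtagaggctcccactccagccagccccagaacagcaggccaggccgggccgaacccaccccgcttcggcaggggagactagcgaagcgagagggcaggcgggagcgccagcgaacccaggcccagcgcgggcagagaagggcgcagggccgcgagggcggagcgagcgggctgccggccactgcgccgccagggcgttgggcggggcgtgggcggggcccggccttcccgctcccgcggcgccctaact
The sequence before the upstream start of Cdkn2a holds an E2F motif at position -99 from that start, and it is the only member promoter of the 10 that does, where 1.86% of the 32851 promoters in the table hold one. The GLI motif is in 0 of the 10 and in 0.225% of all promoters. The upstream Cdkn2a sequence has 40 CpG dinucleotides and the downstream one has 7, beside a median of 6 over all promoters. These are matches of letters in a short window and say nothing of binding.

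Cdkn2d, which encodes the remaining INK4 protein and is not a member of the group chosen, moved against the other INK4 genes. It had 408, 401 and 379 counts in WT-labelled wells and 673, 701 and 582 in KO-labelled wells, a log2 fold change of 0.53 (SE 0.07, adjusted p = 1.66e-05). Within each library, the summed RPKM of the 4 INK4 genes was divided among them. Cdkn2c made up 31.8%, 30.3% and 31.7% of the sum in WT-labelled wells and 25.8%, 26.1% and 24.8% in KO-labelled wells. For Cdkn2d the shares were 10.2%, 9.38% and 9.92% against 17.3%, 15.8% and 16.5%. Cdkn2a took 54.2% ± 1.31 and 53.8% ± 1.01 of the sum (SD, n = 3 each), a difference within the spread of the wells (exact two-sided permutation p = 0.7). For the shares of Cdkn2c and Cdkn2d the exact p was 0.1, the smallest that 3 libraries against 3 allow.

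**Figure D2:**
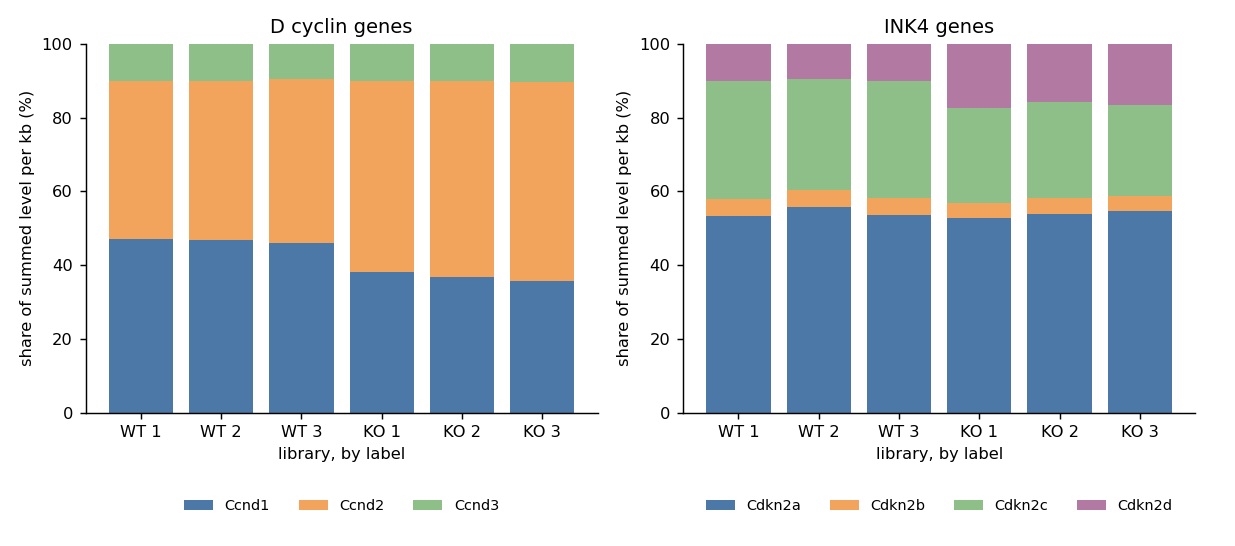
Share of the summed level per kilobase of exon (vertical axis, percent) taken by each D cyclin gene (left) and each INK4 gene (right) in each of the 6 libraries, named by label and replicate. The Ccnd1 part is smaller and the Ccnd2 part larger in each well labelled KO, and the Cdkn2c part gives way to Cdkn2d.

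Cdkn1b (chromosome 6, 134920401 to 134925513), the KIP1 gene, did not pass the test. It had 6888, 7704 and 7117 counts in WT-labelled wells and 8271, 9937 and 7566 in KO-labelled wells, or 219.8, 230.0 and 222.9 CPM against 233.6, 238.5 and 229.2 CPM. The groups overlap, and the log2 fold change was 0.06 with a 95% interval from -0.01 to 0.13 (adjusted p = 0.110). It is a result that depends on scaling: with upper-quartile scaling the change was 0.12 (adjusted p = 0.00567) and with total counts 0.09 (adjusted p = 0.0202), both past the test. These scalings moved the median of all genes from 0.0020 to 0.06 and 0.04, about as far as they moved Cdkn1b. Cdkn1a, the KIP1 relative that p53 induces, fell, with 481 ± 16.0 CPM in WT-labelled wells and 392 ± 5.31 CPM in KO-labelled wells (SD, n = 3 each), which is -0.29 on the log2 scale (SE 0.03, adjusted p = 4.21e-06). Cdkn1c, the third of this family and an imprinted gene, had 3, 3 and 4 counts against 12, 13 and 5, too few to be tested.

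The D cyclin genes moved in opposite directions. Ccnd1 (chromosome 7, 144929931 to 144939925) had 11327, 11662 and 10876 counts in WT-labelled wells and 9861, 11501 and 8699 in KO-labelled wells, or 361.4, 348.2 and 340.7 CPM against 278.5, 276.0 and 263.5 CPM. Each well labelled KO was below every well labelled WT. Its log2 fold change was -0.36 (SE 0.03, adjusted p = 1.14e-06), a level 1.28-fold lower.

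Ccnd2 (chromosome 6, 127125162 to 127152193) was the member with the most counts, 20597, 21451 and 21024 in WT-labelled wells and 26625, 33182 and 26283 in KO-labelled wells. In CPM these are 657, 641 and 659 against 752, 796 and 796, again with no overlap. Its log2 fold change was 0.26 (SE 0.03, adjusted p = 1.17e-05), a level 1.20-fold higher. Ccnd3 (chromosome 17, 47505051 to 47599691) had 145, 140 and 132 CPM against 137, 141 and 142 CPM, groups that overlap, and its log2 fold change was 0.01 with a 95% interval from -0.07 to 0.09.

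The ratio of Ccnd2 to Ccnd1 within a library does not depend on how libraries are scaled. Per length of annotated exon, log2 of this ratio was -0.14, -0.12 and -0.05 in WT-labelled wells and 0.43, 0.53 and 0.60 in KO-labelled wells, a shift of 0.62 or 1.54-fold (exact two-sided permutation p = 0.1, the smallest possible here). This ratio was not among the planned measures. It sets the D cyclin gene that fell against the one that rose, so that it restates their changes and is no separate support. Ccnd1 made up 47.1%, 46.8% and 46.0% of the summed D cyclin RPKM in WT-labelled wells and 38.2%, 36.8% and 35.7% in KO-labelled wells. The Ccnd2 shares were 42.8%, 43.1% and 44.5% against 51.7%, 53.1% and 54.0%. Ccnd3 stayed at 9.92% ± 0.299 and 10.2% ± 0.135 (SD, n = 3 each; exact p = 0.4). The summed D cyclin level was 160 ± 3.16 RPKM in WT-labelled wells and 157 ± 2.33 RPKM in KO-labelled wells, which differs by less than the spread of the wells (exact p = 0.4).

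The shift of the log2 ratio does not depend on gene length, but the shares, their shifts, the summed level and the order of Ccnd1 and Ccnd2 do. Per length of the longest coding transcript, a choice made after the data were seen, Ccnd1 took 35.7% and Ccnd2 39.3% of the D cyclin sum in WT-labelled wells, so that Ccnd2 was the higher in both groups. The order of those genes in WT-labelled wells is therefore not settled by these counts. By that length the D cyclin sum was 262.4 in WT-labelled wells and 262.6 in KO-labelled wells. With no length correction it was 1141 and 1194 CPM, so that the direction of its difference depends on the length used. Ccnd1 exons overlap LTO1 on the opposite strand over 1100 bases and Ccnd2 exons overlap noncoding genes over 740 bases, where reads could not be told apart without strand. LTO1 had a log2 fold change of -0.15 (SE 0.04, adjusted p = 0.0105), and its level was 29.1 CPM in WT-labelled wells, well under that of Ccnd1. The noncoding 9330179D12Rik, which overlaps Ccnd2, fell by 0.65 on the log2 scale while Ccnd2 rose, at 1.51 and 0.960 CPM.

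Of the kinase genes, Cdk4 did not pass the test and Cdk6 rose. Cdk4 (chromosome 10, 127063534 to 127067920) had 9038, 9667 and 8923 counts in WT-labelled wells and 10283, 11752 and 8547 in KO-labelled wells, or 288, 289 and 280 CPM against 290, 282 and 259 CPM. The groups overlap, with 1 well labelled KO below the rest, and the log2 fold change was -0.04 with a 95% interval from -0.13 to 0.04 (adjusted p = 0.377). Cdk6 (chromosome 5, 3341485 to 3531008) had 34.8, 31.4 and 35.7 CPM in WT-labelled wells and 37.8, 39.3 and 43.1 CPM in KO-labelled wells. The groups do not overlap, although the nearest libraries are close together, and the log2 fold change was 0.24 (SE 0.06, adjusted p = 0.00370).

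Cdk4 had the highest mean level per length of the members, at 87.9 ± 1.60 RPKM in WT-labelled wells and 85.3 ± 5.02 RPKM in KO-labelled wells (SD, n = 3 each), although in KO-labelled wells Ccnd2 at 83.1 ± 2.72 RPKM lay within its spread. Cdk6 was at 2.43 ± 0.164 and 2.86 ± 0.195 RPKM, the lowest member in WT-labelled wells and level with Cdkn2b (2.83 ± 0.152 RPKM) in KO-labelled wells. The level of Cdk4 was thus 36.2 times that of Cdk6 in WT-labelled wells and 29.8 times in KO-labelled wells. On the log2 scale this ratio was 5.16, 5.31 and 5.07 in WT-labelled wells and 5.05, 4.95 and 4.69 in KO-labelled wells, groups that do not overlap but lie close to each other (exact two-sided permutation p = 0.1). Per length of the longest coding transcript its mean was 5.56 in WT-labelled wells and 5.28 in KO-labelled wells. The size of the ratio thus depends on the length used, while its shift between the groups does not. The Cdk4 exons overlap Tspan31 on the opposite strand over 641 bases, and Tspan31 had a log2 fold change of 0.08 (SE 0.03, adjusted p = 0.0448).

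The summed INK4 level was 79.5 ± 3.04 RPKM in WT-labelled wells and 68.4 ± 1.09 RPKM in KO-labelled wells (SD, n = 3 each), while the sum of Cdk4 and Cdk6 was 90.3 ± 1.49 and 88.2 ± 4.83 RPKM. The log2 ratio of the INK4 sum to the kinase sum was -0.16, -0.17 and -0.22 in WT-labelled wells and -0.40, -0.40 and -0.29 in KO-labelled wells. That is a ratio of 0.880 against 0.776 in RPKM, with no overlap between the groups (exact two-sided permutation p = 0.1, the smallest possible). The size of the ratio depends on the length used. Its mean log2 was -0.57 against -0.75 per length of the longest coding transcript, and -1.245 against -1.504 with no length correction. These are RNA levels, and protein was not measured here.

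Rb1 (chromosome 14, 73183673 to 73325822) had 685, 791 and 744 counts in WT-labelled wells and 755, 949 and 738 in KO-labelled wells, or 21.9, 23.6 and 23.3 CPM against 21.3, 22.8 and 22.4 CPM. The groups overlap, and the log2 fold change was -0.05 with a 95% interval from -0.16 to 0.06 (adjusted p = 0.431). Rb1 exons overlap those of Rcbtb2 and Lpar6 on the opposite strand over 896 bases, where reads could not be told apart without strand. Lpar6 lies within Rb1 and rose, with a log2 fold change of 0.34 (SE 0.08, adjusted p = 0.00371). Rcbtb2, at 38.98 and 45.35 CPM, had a log2 fold change of 0.22 (SE 0.05, adjusted p = 0.00230). The Rb1 relatives that share its pocket domain rose. Rbl1 had a log2 fold change of 0.66 (SE 0.06, adjusted p = 5.99e-07), at 13.3 ± 0.567 and 21.1 ± 0.772 CPM, and Rbl2 one of 0.18 (SE 0.04, adjusted p = 0.00189), at 92.5 ± 4.97 and 105 ± 1.86 CPM (SD, n = 3 each).

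**Figure D3:**
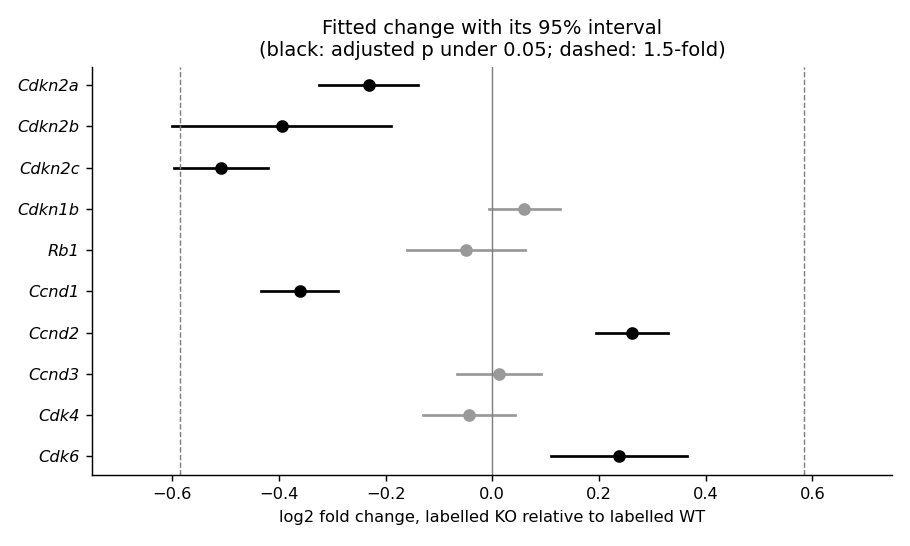
Fitted log2 fold change of each member (points) with its 95% interval (lines), on a horizontal axis from lower to higher in KO-labelled wells; black marks an adjusted p under 0.05 and dashed lines mark 1.5-fold. The 3 Cdkn2 genes and Ccnd1 lie below 0, Ccnd2 and Cdk6 above it, and no point lies past the dashed lines.

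Other genes of the RB axis (pocket proteins, E2F and DP factors, cyclins E and A, CDK2, the CDK-activating kinase and genes of cyclin and KIP1 turnover) were listed as background to the members. The list also holds Cdc25a, Cdc37, Lin9, Lin37, Lin52, Lin54 and Rbbp4. Cdkn1a, Cdkn1c, Cdkn2d, Rbl1 and Rbl2, given above, are in it as well. Of 35 such genes 34 are in the table (Ccna1 is not) and 33 were tested, of which 25 passed the test, 20 higher and 5 lower, beside 58.7% of all genes. With the 1.5-fold limit 6 were differentially expressed and all 6 were higher, where 11.6% of all genes were. Their median log2 fold change was 0.17, beside 0.0020 over all genes. The largest increases were those of Ccna2 (cyclin A2, of S phase and mitosis), with a log2 fold change of 1.63 (SE 0.10, adjusted p = 1.89e-08), E2f2 with 1.40 and the repressor E2f7 with 1.39. Among the genes next to the members in the pathway, Ccne2 (cyclin E2) rose by 1.01 (SE 0.12, adjusted p = 1.65e-05), and Ccne1 by 0.36 with libraries that overlap. Cdk2, the partner of cyclin E, rose by 0.19 (SE 0.04, adjusted p = 0.00115), and E2f1 had a log2 fold change of -0.14 (SE 0.04, adjusted p = 0.00529).

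The S-phase and mitotic genes listed, chosen with earlier results of these data known, differed far more than the members did. The part of the RB pathway in this was not tested. Of 24 S-phase genes under E2F control, 21 passed the test and all 21 were higher in KO-labelled wells. With the fold limit 14 were differentially expressed, beside 11.6% of all genes that were higher, and the median log2 fold change of the list was 0.62. Rrm2, a subunit of ribonucleotide reductase, had a log2 fold change of 1.37 (SE 0.13, adjusted p = 1.22e-06), the thymidine kinase gene Tk1 one of 1.14 and the replicative helicase gene Mcm5 one of 1.10. All 16 mitotic genes listed were differentially expressed and higher, with a median log2 fold change of 1.72 or 3.30-fold. Ccnb2, a mitotic cyclin, had 156, 139 and 139 counts in WT-labelled wells and 666, 882 and 584 in KO-labelled wells, a log2 fold change of 2.10 (SE 0.09, adjusted p = 1.05e-09), and those of Ccnb1 and Kif20a were 1.92 and 1.84.

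The summed level of the 16 mitotic genes was 251, 208 and 211 CPM in WT-labelled wells and 692, 672 and 595 CPM in KO-labelled wells. For the 24 S-phase genes the sums were 862, 756 and 743 CPM against 1149, 1101 and 1002 CPM. The wells of a group thus differ in these sums, and the groups do not overlap in either. In bulk RNA, a different number of cells in cycle and a different amount of RNA per cycling cell cannot be told apart. The part of this difference in the changes of the members was not tested.

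**Figure D4:**
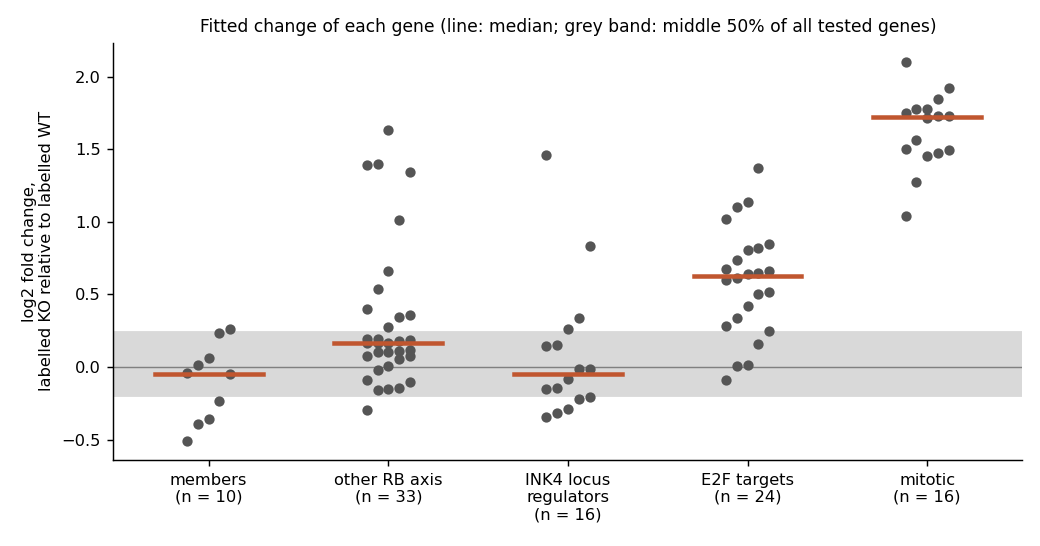
Fitted log2 fold change (vertical axis) of each tested gene of the members and of 4 lists, with the median of each list as a line and the middle 50% of all tested genes, from -0.20 to 0.24, as a grey band. The members stay between -0.51 and 0.26, while the median of the S-phase genes lies at 0.62 and that of the mitotic genes at 1.72.

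Genes known to act on the Cdkn2a and Cdkn2b locus, among them Polycomb subunits that silence it, went both ways. All 16 listed were tested, 13 passed, 6 higher and 7 lower, beside 58.7% of all genes, and their median log2 fold change was -0.05. The Polycomb subunit genes Rnf2, Bmi1 and Ring1 fell by 0.34, 0.14 and 0.15 on the log2 scale (adjusted p = 2.07e-06, 0.00240 and 0.0379). The histone demethylase gene Kdm2b, also known as a repressor of the locus, fell by 0.32 (adjusted p = 1.11e-05). The remaining lower genes that passed were Kdm6b, Ets1 and Ets2, by 0.29, 0.22 and 0.21 (adjusted p = 1.16e-05, 5.20e-04 and 2.45e-04). Other Polycomb genes of the list rose: Ezh2, Cbx7, Cbx8 and Eed, by 0.33, 0.27, 0.15 and 0.15 (adjusted p = 2.02e-04, 3.07e-04, 0.0100 and 0.00598). All these genes were picked after their values were seen. With the fold limit 2 of the 16, or 12.5%, were differentially expressed beside 17.7% of all genes, which is no result about the list. Both were higher: Tbx3 and Tbx2, T-box repressors of this locus. Tbx3 had 21, 14 and 14 counts in WT-labelled wells and 47, 62 and 45 in KO-labelled wells (log2 fold change 1.46, SE 0.22, adjusted p = 9.77e-05), and Tbx2 had 17, 26 and 34 against 53, 67 and 37 (0.83, SE 0.24, adjusted p = 0.00969). Both stand near 1 CPM, and for Tbx2 the groups come close to each other.

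Of the other neighbours of members some passed the test and some did not. Faf1, beside Cdkn2c, fell with it (log2 fold change -0.27, SE 0.04, adjusted p = 2.00e-04), while 9630013D21Rik on its other side had 0.03 (adjusted p = 0.875). The noncoding Lockd, which lies 3578 bases beyond Cdkn1b, had a log2 fold change of 1.66 (SE 0.22, adjusted p = 2.83e-05), at 0.675 and 2.10 CPM, where Cdkn1b itself was at 224 and 234 CPM. March9, beside Cdk4, fell by 0.82 on the log2 scale (SE 0.07, adjusted p = 7.97e-07), with no such change in Cdk4. Tpcn2 (log2 fold change 0.14, adjusted p = 0.0207) passed the test, as did Tigar (0.17, adjusted p = 0.0496) with libraries that overlap. The rest did not pass: 2810454H06Rik (0.43), Taf8 (-0.08), Bysl (-0.06), Gm15772 (-0.05) and Fam133b (-0.0045), all given as log2 fold changes.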

How the data were processed

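RNA of 6 libraries, 3 labelled WT and 3 labelled KO by the genotype in the sample labels, was compared. The authors deposited raw counts per gene and log2 CPM values from limma's voom for 14831 genes, with low genes already removed; the submitters' processing notes name STAR 2.7.2b, featureCounts, limma and the build GRCm38.p6, and whether counting used strand is not given in the sources used here. The methods state no test for these libraries. The test of the counts used edgeR 4.0.16 under R 4.3.3 (TMM, filterByExpr, quasi-likelihood F test, Benjamini-Hochberg adjustment over 14289 genes), checked on simulated data. Standard errors come from the log2 fold change and its F statistic, and RPKM from the union of GENCODE M21 exons, which matched 14822 identifiers. Shares and ratios within a library were compared by exact permutation. The named genes are the members, their closest relatives and partners, the nearest listed neighbours, and, of the genes of each list called with the fold limit, up to 3 in each direction by size of change. Genes said to be picked after their values were seen were added to these. The members and lists were chosen with earlier results of these data known. Alternatives covered the scaling (RLE, upper-quartile, total counts), the filter, the fold limit, the tool (DESeq2 1.42.0, limma 3.58.1 by voom or on the deposited log2 values), gene length and each library left out. Within groups every pair of wells differed beyond counting noise (chi-square per degree of freedom from 2.47 to 7.53).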

Additional observations from a re-analysis of the deposited data

How the results depend on the processing

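Of 140 recomputed log2 fold changes of the members, 134 kept their direction and their side of an adjusted p of 0.05. Those of Cdkn2a, Cdkn2b, Cdkn2c, Ccnd1, Ccnd2 and Cdk6 did so under all 14 alternatives, with highest adjusted p values of 0.00413, 0.0152, 9.34e-06, 3.14e-05, 2.95e-04 and 0.0263. Signs changed only in members that did not pass the test: under upper-quartile scaling, which moves the median of all genes to 0.06, Rb1 was at 0.0076 and Cdk4 at 0.014, and with each library left out Ccnd3 ranged from -0.024 (without the third WT-labelled well) to 0.042 and Cdk4 from -0.082 to 0.0049 (without the third KO-labelled well). Cdkn1b passed the test under 2 scalings, as given above. With no fold limit the numbers called were 6 members, 25 other RB axis genes, 13 regulators of the INK4 locus, 21 E2F targets and 16 mitotic genes. With a limit of 2-fold they were 0 members, 5 other RB axis genes, 1 regulator, 4 E2F targets and 16 mitotic genes. A lower limit calls at least as many genes by construction. Leaving out 1 library gave 0 members called throughout, 6 to 7 other RB axis genes, 2 regulators, 10 to 17 E2F targets and 16 mitotic genes.

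With counts not corrected for length, the Ccnd1 share of the D cyclins shifted by -7.84 percentage points in KO-labelled wells and the Ccnd2 share by 8.28 points, the Ccnd3 share changed sign to -0.44, and the log2 INK4 to kinase ratio shifted by -0.26 rather than -0.18. Per length of the longest coding transcript the Ccnd1 and Ccnd2 shares shifted by -7.91 and 7.72 points. With each library left out the Ccnd1 shift was between -10.4 and -9.10 points, that of Ccnd2 between 8.93 and 10.1, that of Ccnd3 between 0.077 and 0.35, that of the log2 Cdk4 to Cdk6 ratio between -0.36 and -0.18, and that of the INK4 ratio between -0.22 and -0.16. Lengths weigh the genes of a share, and other causes were not tested. No paired analysis was possible because the labels give the wells no shared numbers.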
